A study of Mus musculus with 9 samples.

Results

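The genes described here encode the receptors for glutamate and GABA, the main excitatory and inhibitory transmitters of the brain. They were taken by name, as the protein-coding genes whose symbols mark them as AMPA (Gria), kainate (Grik), NMDA (Grin), delta (Grid) or metabotropic (Grm) glutamate receptors, or as GABA-A (Gabr) or GABA-B (Gabbr) receptors. This gave 47 genes of the 55450 in the count files, 26 for glutamate and 21 for GABA. RNA of manually dissected substantia nigra, the midbrain nucleus of the dopaminergic neurons that project to the striatum, was sequenced in 9 libraries, 3 in each of 3 groups. The control group (CTR) was CX3CR1-CreERT2 mice, which carry a tamoxifen-inducible Cre in the microglial gene Cx3cr1, injected with a Cre-inducible control vector that the labels describe as GFP and the study's methods as a destabilized GFP. The CX3 group was mice of the same line injected with the study's Cre-inducible transgene vector. The DAT group was DAT-Cre mice, with Cre in the dopamine transporter gene, injected with that same transgene vector. The mice were male, the lentiviral vectors were injected on both sides, and the methods give tamoxifen to the CX3CR1-CreERT2 mice only. Tissue was collected 5 weeks after transduction. DAT libraries therefore differ from controls in vector, Cre line and tamoxifen together, which cannot be told apart, and no DAT-Cre group with the control vector was analysed here. The sources do not give the animals per library, so p-values measure the spread between these libraries, which may be technical.

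AMPA and kainate receptors are ion channels that carry fast excitatory currents, and NMDA receptors are channels that also admit calcium and need both glutamate and a depolarized membrane to open. Metabotropic glutamate receptors and GABA-B receptors signal through G proteins, whereas GABA-A receptors are chloride channels assembled mostly from alpha, beta and gamma subunits. In the substantia nigra, glutamatergic input from the subthalamic nucleus and dense GABAergic input from the striatum and pallidum meet on dopaminergic neurons of the pars compacta and on GABAergic neurons of the pars reticulata.

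Counts on genes totalled from 21592817 in DAT_B to 39475428 in DAT_A. CPM values are counts relative to the TMM-scaled library size, and 3 counts, the smallest signal taken as countable, equalled 0.0779 to 0.151 CPM (counting error only). A gene was called when its adjusted p from edgeR's quasi-likelihood test over 20892 genes was under 0.05. The libraries CX3_A and DAT_B stood apart within their groups. Over all genes, the squared difference between DAT_B and the other DAT libraries was 16.5 and 12.1 times that of random sampling, against 2.26 for the other pair. For CX3_A these values were 4.76 and 6.59, against 2.53 for the other CX3 pair, and control pairs gave 1.45 to 1.80. The receptor genes shared this difference, at 38.4 and 27 times random sampling for DAT_B, against 2.53 for the other DAT pair. For CX3_A their values were 18.5 and 23.1, against 2.72 for the other CX3 pair. This ratio grows with counts, which were higher for receptor genes than for most genes. The 2 sets of values therefore cannot be compared directly. Of the 39 receptor genes with at least 5 CPM, 36 were lower in CX3_A than in the mean of the other CX3 libraries (median log2 difference -0.09) and 31 were lower in DAT_B than in the other DAT libraries (median -0.14). Other genes with a long total exon length, the sum of all annotated exons of a gene, shared it too. Of the 4204 genes of at least 5 CPM with the longest total exon length, 3589 were lower in CX3_A and 3290 in DAT_B. Their median log2 differences were -0.09 in CX3_A and -0.14 in DAT_B. Of the 4207 genes of at least 5 CPM with the shortest total exon length, 1333 were lower in CX3_A (median 0.04) and 867 in DAT_B (median 0.15). The receptor genes have a long total exon length (median 6686 bases), and their median differences were close to those of the genes with the longest.

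The tissue held the dopaminergic markers in every library. Th, the rate-limiting enzyme of dopamine synthesis, had 80.1, 80.6 and 84.1 CPM in control libraries, 104, 98.7 and 99.7 in CX3 libraries and 68.99, 68.3 and 68.02 in DAT libraries. Cx3cr1, whose locus carries the Cre of both the control and the CX3 mice, had 103, 101 and 103 CPM in control, 43.6, 45.3 and 45.0 in CX3 and 85.6, 78.5 and 86.2 in DAT libraries, so 2 groups given the same Cre line differed in it. Summed over 8 microglial markers, control libraries had 1210 to 1230 CPM, CX3 libraries 807 to 832 and DAT libraries 620 to 671. The 8 markers of choroid plexus and pituitary, tissues outside the nigra, summed to 85 to 90.3 CPM in controls against 1450 to 1570 in CX3 and 860 to 1040 in DAT libraries. That sum was carried by choroid plexus genes, of which 4 were higher in both groups. The pituitary hormone genes Gh and Prl were highest in controls: Gh (growth hormone) ran from 33.6 to 35.8 CPM in control, 0.0781 to 0.312 in CX3 and 0.0439 to 0.165 in DAT libraries, and Prl (prolactin) from 5.62 to 6.13 CPM in control and 0.026 to 0.0779 in CX3 libraries, with 0 counts in DAT libraries. The part of these markers in the results below was not tested, and in bulk tissue fewer cells of a type and less RNA per cell cannot be told apart.

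Averaged over the 9 libraries, the median of the 43 tested receptor genes was 67.0 CPM, against 11.8 CPM over all tested genes. The other 4, Gabra6, Gabrp, Gabrr3 and Grm6, had 0 to 12 counts in each library and were not tested. Gabra6, the alpha subunit typical of cerebellar granule cells, had 1 to 5 counts per library in all groups. Of the 43 tested genes, 42 reached the filter of 0.304 CPM in all 9 libraries and Gabrr1, a rho subunit known mainly from the retina, reached it in 6.

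Levels of different genes can be compared only per length. Per kilobase of annotated exon, Gabbr1, the ligand-binding GABA-B subunit, had 84.3 ± 0.135 CPM per kb (SD, n = 3) in control libraries, the highest level of any receptor gene. Gria1, an AMPA subunit, had 36.03 ± 0.813, Gabbr2, the GABA-B subunit that couples to the G protein, 31.3 ± 0.735, and Gria4, another AMPA subunit, 25.3 ± 0.294. The control libraries of these 4 genes did not overlap one another. Further down, Gabra3, Gabrb2, Grm3 and Gria2, at 22.6, 21.8, 20.9 and 19.9 CPM per kb, each overlapped their neighbour. Of other families, Grik5 (12.2) led the kainate and Grin1 (9.62 CPM per kb) the NMDA receptors, and Grm7 (7.24) the group III metabotropic receptors. Exon length is the sum of all annotated exons, so genes with long alternative ends, such as Grin2b with 24842 bases, read low on this scale.

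**Figure D1:**
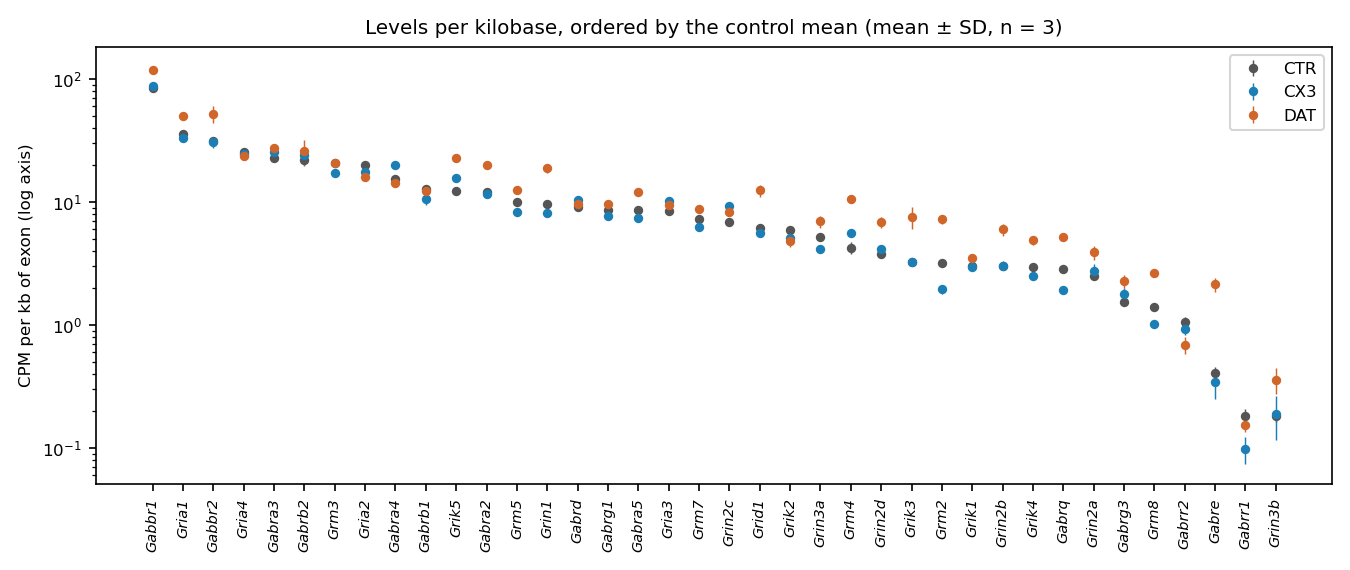
Mean CPM per kilobase of exon on a log axis for 38 tested receptor genes, ordered by the control mean, with 1 point per group (error bars: SD over 3 libraries). Gabbr1 leads in all 3 groups, and the DAT points of Grm2, Grik3, Grm4 and Gabre lie well above those of both other groups.

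Most receptor genes were higher in DAT than in control tissue, and few differed by much between CX3 and control tissue. In DAT against CTR, 32 of 43 were called higher (32% of all genes tested) and 3 lower (27.9% of all genes), and the median log2 fold change was 0.49 against -0.00 over all genes. At 1.5-fold or more, 17 were higher (12.5% of all genes) and 1 lower (17.3% of all genes). Of the 25 tested glutamate receptor genes, 21 were higher and 2 lower in this comparison, and of the 18 tested GABA receptor genes 11 were higher and 1 lower. In CX3 against CTR, 9 were called higher (14% of all genes) and 15 lower (16.5%), with a median of -0.06. Only Grm2 was called with a 1.5-fold change there, downward: 1 lower against 4.76% of all genes, and 0 higher against 3.19%. In CX3 against DAT, 4 were higher (27.6% of all genes) and 31 lower (31.3%), of which 0 higher (16%) and 20 lower (13.1%) reached 1.5-fold. The comparisons share libraries, so their counts are not independent of each other. The same shares of all genes stand behind the counts by family and by gene list given below. Without CX3_A and DAT_B, 33 receptor genes were higher and 6 lower in DAT against CTR, 15 higher and 18 lower in CX3 against CTR, and 10 higher and 32 lower in CX3 against DAT. More of all genes were called in that fit too, 32.4% higher and 33.5% lower in DAT against CTR, 20.6% and 22.1% in CX3 against CTR, and 31.6% and 31.2% in CX3 against DAT.

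**Figure D2:**
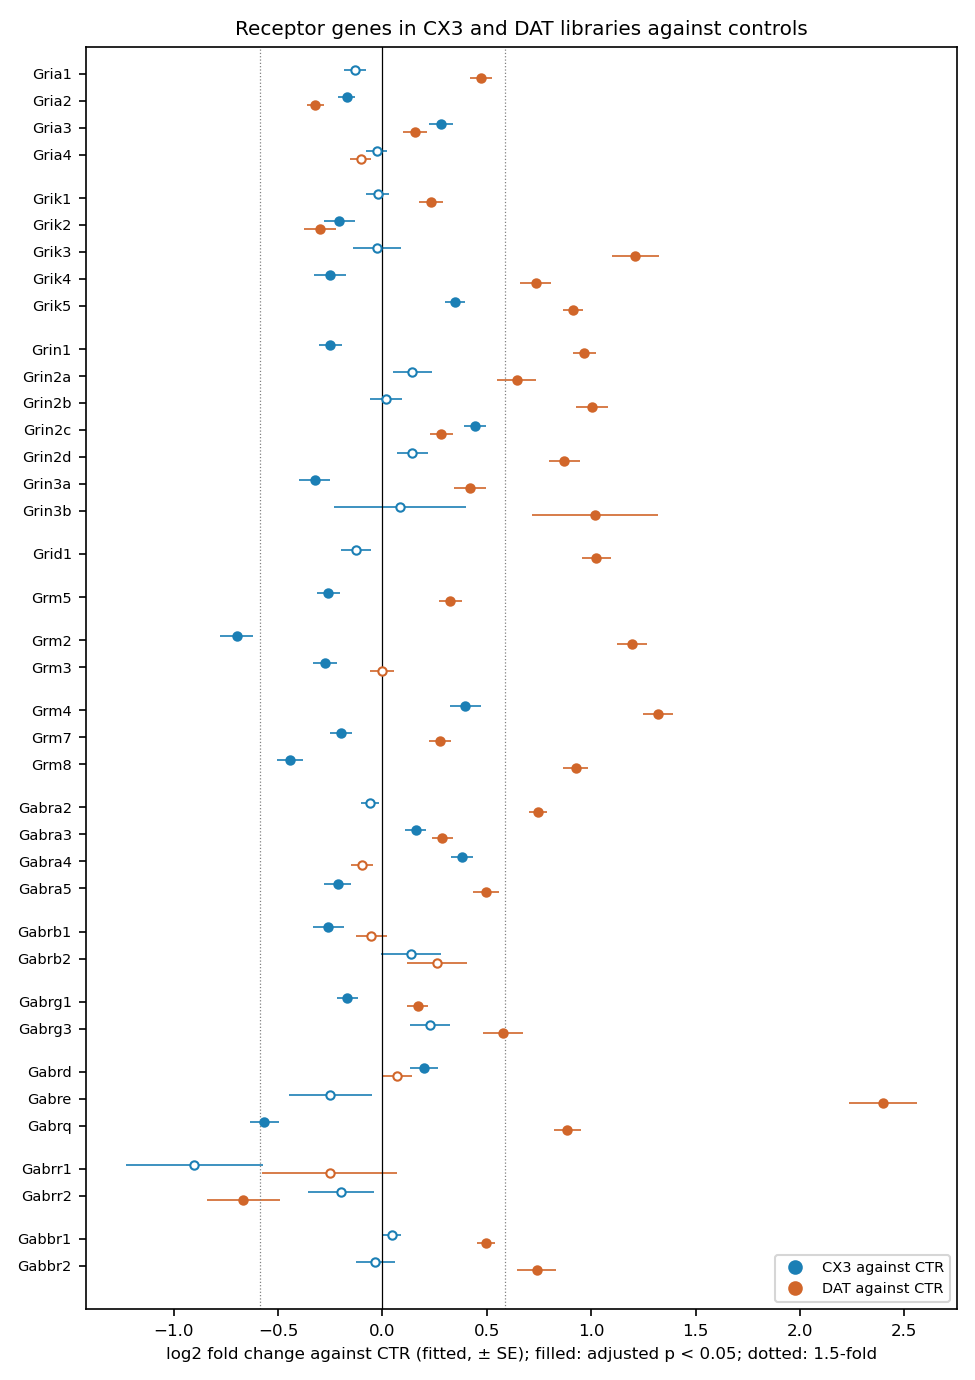
Fitted log2 fold changes against CTR (x axis, ± SE) of 38 tested receptor genes, grouped by family, for CX3 (blue) and DAT (orange); filled points have an adjusted p under 0.05 and dotted lines mark 1.5-fold. The orange points lie mostly right of 0, up to 2.40 for Gabre, while the blue points lie on both sides of 0 and within 1.5-fold except Grm2 and Gabrr1.

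Some calls depended on single libraries. In all 9 fits that left out 1 library, 29 of the 32 higher calls and 3 of 3 lower calls of DAT against CTR were kept, but in CX3 against CTR only 7 of 9 higher and 8 of 15 lower calls were. The kept lower calls of the CX3 group were those of Gria2, Grin1, Grin3a, Grm2, Grm3, Grm5, Grm8 and Gabrq. The higher calls of CX3 against CTR for Gabra3 (log2 0.12, adjusted p = 0.135 without CX3_B) and Gabrd (0.14, adjusted p = 0.193 without CTR_C) were lost. Among lower calls of CX3 against CTR, Grik2 (-0.13, adjusted p = 0.178) and Gabrg1 (-0.14, adjusted p = 0.0847) were lost without CX3_A, and Grik4 (-0.19, adjusted p = 0.115) without CX3_B. Gabra5 (-0.17, adjusted p = 0.0995) was lost without CTR_A, and Gabrb1 (-0.24, adjusted p = 0.0751) and Grm7 (-0.18, adjusted p = 0.0633) without CTR_C. In DAT against CTR, Gria3 (0.10, adjusted p = 0.201) and Grin3b (0.76, adjusted p = 0.084) were lost without DAT_A and Gabrg1 (0.14, adjusted p = 0.0759) without CTR_B. In CX3 against DAT, Gabra3 (-0.08, adjusted p = 0.274) was lost without DAT_C, Gabrb1 (-0.10, adjusted p = 0.224) without CX3_A, and Grin3b (-0.68, adjusted p = 0.113) without DAT_A. For each gene the fit with the largest p is given, and several were also lost without other libraries.

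All 7 NMDA receptor genes were higher in DAT than in control libraries (32% of all genes), 5 of them by 1.5-fold or more (12.5%). In CX3 libraries 1 was higher (14% of all genes), 2 were lower (16.5%) and 4 were not called. Grin1 (chr2:25291181-25319187, minus strand, GRCm38), the obligatory subunit of every NMDA receptor, had 91.04, 93.8 and 95.3 CPM in control libraries, 78.1, 81.1 and 76.5 in CX3 libraries and 196, 168 and 183 in DAT libraries. The 3 groups did not overlap, with CX3 lowest and DAT highest. The log2 fold change was 0.97 ± 0.0551 (SE), adjusted p = 2.96e-09 in DAT and -0.25 ± 0.0553 (SE), adjusted p = 0.00376 in CX3 against CTR. Grin1 shares 13.5% of its exon bases with Grin1os on the opposite strand, and the unstranded column counts reads on both for neither gene.

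The glutamate-binding GluN2 subunits set the kinetics and the location of the receptor. Grin2b (chr6:135713233-136173511, minus strand), the subunit of slow and early-expressed receptors, had 74.03, 73.5 and 76.2 CPM in control, 68.1, 78.6 and 79.7 in CX3 and 159, 129.9 and 158 in DAT libraries. Control and CX3 libraries overlapped and all DAT libraries lay above them, a 2.004-fold difference (log2 1.00 ± 0.0769 (SE), adjusted p = 6.28e-08). Grin2d, a subunit typical of midbrain and thalamus, had 25.5, 23.5 and 26.3 CPM in control, 26.6, 27.4 and 29.1 in CX3 and 49.8, 40.8 and 46.6 in DAT libraries. It was higher in DAT (log2 0.87 ± 0.0732 (SE), adjusted p = 1.61e-07), and DAT_B was the lowest of the DAT libraries in both genes.

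Grin2a, the subunit of fast mature receptors, ran from 44.2 to 45.4 CPM in control, 42.4 to 54.99 in CX3 and 59.8 to 75.1 CPM in DAT libraries (log2 0.64, adjusted p = 4.14e-05 in DAT). Grin2c, best known from cerebellum and astrocytes, differed from the others. It had 33.96, 34.6 and 34.7 CPM in control, 46.5, 44.97 and 48.9 in CX3 and 44.1, 40.2 and 40.9 in DAT libraries, highest in CX3. It was the only NMDA receptor gene called higher in CX3 against CTR (log2 0.45, adjusted p = 2.24e-05), and the only one called higher in CX3 than in DAT (log2 0.16, adjusted p = 0.0158).

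The glycine-binding GluN3 subunits differed in level. Grin3a ran from 61.5 to 66.97 CPM in control, 47.1 to 53.9 in CX3 and 74.9 to 93.6 CPM in DAT libraries, and was lower in CX3 (log2 -0.32, adjusted p = 0.00527) and higher in DAT (log2 0.42, adjusted p = 0.000268). Grin3b was near the limit of the data, with 0.525, 0.632 and 0.633 CPM in control, 0.753, 0.347 and 0.781 in CX3 and 1.48, 1.16 and 0.922 in DAT libraries, or 12 to 54 counts. Its difference in DAT (log2 1.02, adjusted p = 0.00947) was not called without DAT_A, and 32.1% of its exon bases lie over Tmem259 on the other strand.

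The AMPA receptor genes did not move together. Gria1 (chr11:57011387-57330244, plus strand), the highest of them per kilobase, had 216, 214 and 223 CPM in control, 188, 202 and 206 in CX3 and 315, 278 and 313 in DAT libraries. DAT libraries were above all others (log2 0.47 ± 0.0537 (SE), adjusted p = 3.55e-06), and the lower values in CX3 were not called (log2 -0.13, adjusted p = 0.0807). Gria2 (chr3:80681450-80802835, minus strand), whose edited subunit makes AMPA receptors impermeable to calcium, went the other way. It had 309.7, 303 and 316 CPM in control, 264, 280.2 and 279.7 in CX3 and 239.8, 254 and 249 in DAT libraries, with no overlap between the 3 groups. It fell by 0.32 on the log2 scale in DAT (adjusted p = 1.46e-05) and by 0.17 in CX3 (adjusted p = 0.00696), and was 1 of 3 receptor genes lower in DAT. Gria3 was higher in CX3 (log2 0.28, adjusted p = 0.00231) and by less in DAT (log2 0.16, adjusted p = 0.0317), and Gria4 was called in neither (log2 -0.03 and -0.10).

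Of the 5 kainate receptor genes, 4 were higher (32% of all genes) and 1 lower (27.9%) in DAT. In CX3, 1 was higher (14% of all genes) and 2 were lower (16.5%). Grik3 (chr4:125490700-125714173, plus strand), a low-affinity kainate subunit, had 28.3, 29.8 and 30.2 CPM in control, 27.6, 29.1 and 30.2 in CX3 and 76.5, 51.8 and 75.4 in DAT libraries. DAT_B lay well below the other DAT libraries and still above all control and CX3 libraries. The log2 fold change in DAT was 1.21 ± 0.11 (SE), adjusted p = 3.98e-07, and 1.36 without DAT_B. In CX3 it was -0.03, adjusted p = 0.888.

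Grik5, a high-affinity subunit that needs a partner to form a channel, rose in both groups: it had 61.8, 64.1 and 63.5 CPM in control, 83.3, 80.2 and 77.9 in CX3 and 122, 122 and 112 in DAT libraries, with no overlap. The log2 fold change was 0.35 ± 0.0488 (SE), adjusted p = 0.000107 in CX3 and 0.91 ± 0.049 (SE), adjusted p = 1.66e-09 in DAT. Grik4, the other high-affinity subunit, had 17.8, 16.8 and 18.3 CPM in control, 15.3, 13.6 and 15.6 in CX3 and 29.8, 26.6 and 31.6 in DAT libraries. It rose in DAT (log2 0.73, adjusted p = 1.08e-06), and its lower call in CX3 (log2 -0.25, adjusted p = 0.024) was lost without CX3_B. Grik2, the most widespread subunit, was the kainate gene that fell in DAT (log2 -0.30, adjusted p = 0.00321), from 75.95 to 79.5 CPM in control to 56.4 to 67.6 CPM in DAT libraries. Grik1, found mainly in interneurons, was slightly higher in DAT (log2 0.23, adjusted p = 0.00288).

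Grid1 (chr14:34820108-35583379, plus strand), a delta receptor, which binds cerebellins at synapses rather than glutamate, had 37.7, 35.6 and 36.2 CPM in control, 33.2, 33.2 and 33.8 in CX3 and 80.4, 64.4 and 77.5 in DAT libraries, with log2 1.02 ± 0.0702 (SE), adjusted p = 1.94e-08 in DAT. Control and DAT libraries did not overlap, and the lower CX3 values were not called (log2 -0.13, adjusted p = 0.203).

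Group II of the metabotropic receptors, which inhibit adenylate cyclase and act as presynaptic brakes, held the receptor gene with the widest gap between CX3 and DAT libraries among glutamate receptors. Grm2 (chr9:106643095-106656082, minus strand) had 15.6, 15.3 and 15.6 CPM in control libraries, 9.53, 10.3 and 8.85 in CX3 and 38.2, 32.2 and 35.7 in DAT libraries. Every CX3 library lay below every control library and every DAT library above. The log2 fold change was -0.70 ± 0.0785 (SE), adjusted p = 1.53e-05 in CX3 and 1.20 ± 0.0719 (SE), adjusted p = 5.23e-09 in DAT against CTR, and -1.89 ± 0.0748 (SE), adjusted p = 8.2e-11 in CX3 against DAT, with 3.72-fold more in DAT. Grm2 shares 9.60% of its exon bases with Gm28111 on the opposite strand. Grm3, the group II receptor that astrocytes also carry, ran from 60.7 to 65.5 CPM in control and 60.9 to 66.1 CPM in DAT libraries, which overlapped, and from 48.7 to 55.2 CPM in CX3 libraries (log2 -0.27, adjusted p = 0.00263 in CX3). The summed level of 8 astrocyte markers was also lower in CX3 (3620 to 3680 CPM) than in control libraries (5650 to 5730), where 6 of the 8 were called lower and 0 higher. In DAT libraries, where Grm3 overlapped the controls, the sum was 3820 to 3930 CPM, with 4 of the 8 called lower and 1 higher (median log2 -0.08).

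The promoter windows of Grm2, Gria2 and Gabre are printed here because these genes mark the ends of the pattern: Grm2 went opposite ways in the CX3 and DAT groups, Gria2 was lower in both, and Gabre rose most in DAT. Each is the 250 bases before the RefSeq transcription start (GRCm38.p6), 5′ to 3′ on the gene's own strand. Capitals mark exact matches on either strand to the GC box GGGCGG, the site of Sp1-type factors, or to the left and right arms of the RE1 element, TTCAGCACC and GGACAGC, the site of the neuronal gene repressor REST.
Grm2, chr9:106656110-106656359, minus strand: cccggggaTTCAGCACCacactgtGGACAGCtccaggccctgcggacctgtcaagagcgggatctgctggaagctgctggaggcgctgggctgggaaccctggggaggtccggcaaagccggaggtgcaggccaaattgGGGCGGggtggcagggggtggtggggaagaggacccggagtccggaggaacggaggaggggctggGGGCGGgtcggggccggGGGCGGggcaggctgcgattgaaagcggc
Gria2, chr3:80802836-80803085, minus strand: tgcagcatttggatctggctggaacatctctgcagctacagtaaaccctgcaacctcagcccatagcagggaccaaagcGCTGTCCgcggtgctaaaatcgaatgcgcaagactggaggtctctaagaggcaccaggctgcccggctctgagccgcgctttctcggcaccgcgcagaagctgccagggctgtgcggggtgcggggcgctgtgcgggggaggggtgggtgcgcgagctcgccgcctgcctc
Gabre, chrX:72274722-72274971, minus strand: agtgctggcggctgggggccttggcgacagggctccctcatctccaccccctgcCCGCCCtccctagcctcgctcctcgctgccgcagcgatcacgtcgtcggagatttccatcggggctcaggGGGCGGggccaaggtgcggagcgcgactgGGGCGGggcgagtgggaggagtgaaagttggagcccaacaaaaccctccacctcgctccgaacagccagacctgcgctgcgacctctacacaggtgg
Windows were at hand for 32 of the 47 receptor genes. The GC box lay in 17 of these 32 (53.1%), against 35.4% of 27025 genes with windows. The left RE1 arm was found in Grm2 alone (3.12% of the receptor genes, 0.348% of all genes), and the right arm in Grm2 and Gria2 (6.25%, against 6.14% of all genes). In Grm2 the arms begin 242 and 226 bases before the transcription start on the gene's strand, farther apart than in the joined element, and Gria2 has the right arm on the opposite strand, 171 bases before the start. The letters TATAAA occurred in 3 of the 32 windows (9.38%, against 14.3%) and the cyclic AMP response element TGACGTCA in 0 (1.77% of all genes). These matches describe the letters in the windows, not binding.

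Grm5, a group I receptor, which raises intracellular calcium through phospholipase C, was lower in CX3 (log2 -0.26, adjusted p = 0.00275) and higher in DAT (log2 0.33, adjusted p = 0.000154), at 78.9 to 88.8 and 120.4 to 132 CPM against 100.3 to 105 CPM in control libraries.

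The 3 tested group III receptors, presynaptic receptors of axon terminals, were all higher in DAT, but in CX3 Grm4 was higher and Grm7 and Grm8 lower. Grm4 (chr17:27422387-27521403, minus strand) had 22.04, 26.3 and 27.5 CPM in control, 32.04, 35.1 and 32.8 in CX3 and 65.2, 60.4 and 63.6 in DAT libraries, so that the groups formed 3 steps without overlap. The log2 fold change was 0.40 ± 0.0731 (SE), adjusted p = 0.000989 in CX3 and 1.32 ± 0.0725 (SE), adjusted p = 2.08e-09 in DAT, the second largest rise of a receptor gene there. Grm8 (chr6:27275119-28135178, minus strand) had 14.3, 13.6 and 13.5 CPM in control, 9.92, 10.7 and 9.90 in CX3 and 25.9, 25.9 and 26.9 in DAT libraries. It fell by 0.44 on the log2 scale in CX3 (adjusted p = 0.00012) and rose in DAT (log2 0.93 ± 0.0593 (SE), adjusted p = 9.72e-09). Grm7, the highest group III gene per kilobase, had 41.2, 42.5 and 44.2 CPM in control, 35.9, 37.4 and 38.2 in CX3 and 53.2, 48.2 and 53.1 in DAT libraries, with smaller differences in the same directions (log2 -0.20 and 0.28).

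**Figure D3:**
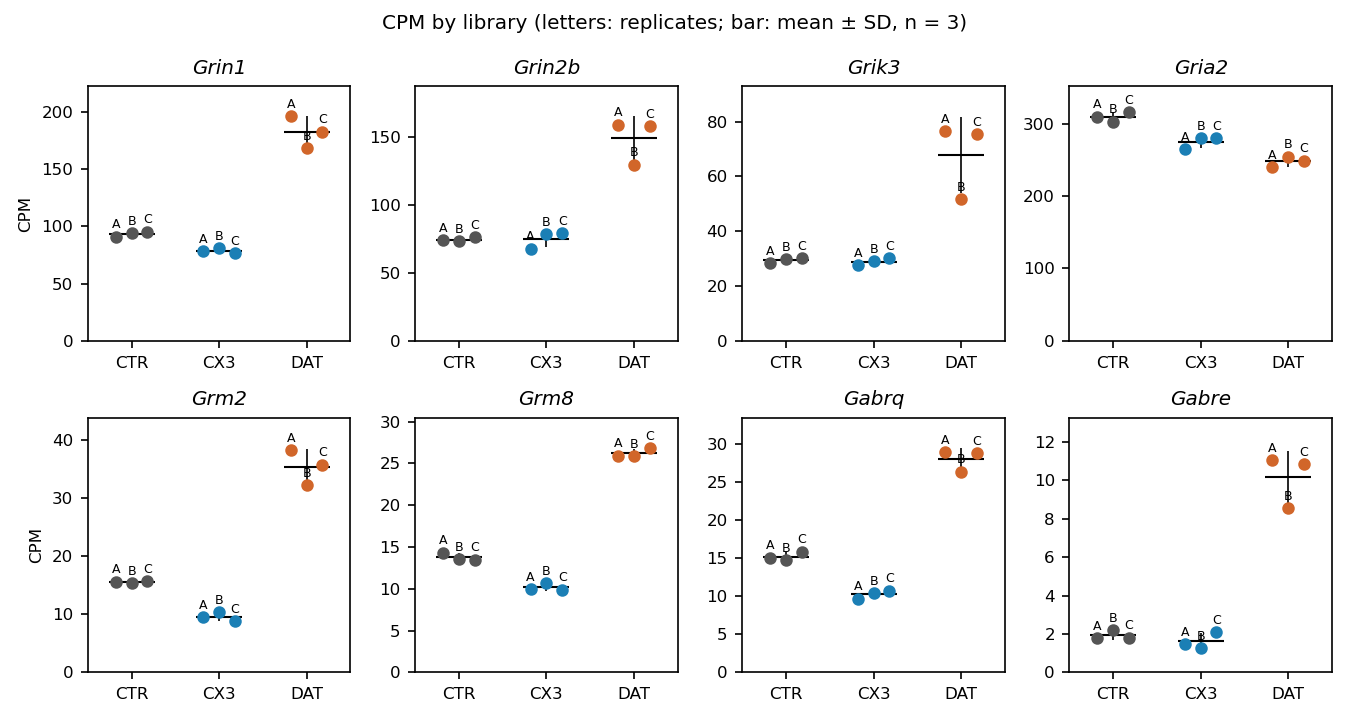
CPM (y axis, from 0) of 8 receptor genes in each library, with replicate letters and the group mean ± SD (n = 3). Grm2, Grm8, Gabrq and Grin1 are lowest in CX3 and highest in DAT libraries, Gria2 steps down from CTR to DAT, and DAT_B is the lowest DAT library in Grik3, Grin2b, Grm2 and Gabre.

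Of the GABA-A receptor genes, 9 were higher (32% of all genes) and 1 lower (27.9%) in DAT. In CX3, 5 were higher (14% of all genes) and 4 lower (16.5%). Gabre (chrX:72255999-72274803, minus strand), the epsilon subunit of a restricted set of neurons including monoaminergic nuclei, had 1.77, 2.20 and 1.80 CPM in control, 1.48, 1.27 and 2.11 in CX3 and 11.1, 8.55 and 10.8 in DAT libraries, or 44 to 403 counts. All DAT libraries lay far above the overlapping control and CX3 libraries, 5.27-fold over control (log2 2.40 ± 0.16 (SE), adjusted p = 1.99e-08), the largest difference of any receptor gene. In CX3 against CTR it was not called (log2 -0.25, adjusted p = 0.384). Gabrq, the theta subunit, which lies near Gabre and Gabra3 on the X chromosome (chrX:72825178-72842602, plus strand) and is also found in monoaminergic neurons, had 15.1, 14.8 and 15.9 CPM in control, 9.71, 10.4 and 10.8 in CX3 and 28.96, 26.4 and 28.8 in DAT libraries. The 3 groups did not overlap, and the log2 fold change was -0.56 ± 0.0677 (SE), adjusted p = 2.71e-05 in CX3 and 0.89 ± 0.0637 (SE), adjusted p = 3.26e-08 in DAT. The third gene of this cluster, Gabra3, the alpha subunit of monoaminergic and reticular neurons, ran from 87.6 to 90.4 CPM in control and 102 to 112 CPM in DAT libraries (log2 0.29, adjusted p = 0.000215).

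The alpha subunits decide where a GABA-A receptor sits and how it answers benzodiazepines. Gabra2, an alpha subunit of forebrain and limbic synapses, had 89.9, 91.01 and 94.2 CPM in control, 87.7, 90.2 and 86.1 in CX3 and 149.9, 156 and 155 in DAT libraries. Only the DAT libraries stood apart (log2 0.75 ± 0.043 (SE), adjusted p = 3.41e-09). Gabra4, typical of extrasynaptic receptors of striatum and thalamus, had 94.9, 91.2 and 92.9 CPM in control, 116, 124 and 123 in CX3 and 82.4, 93.4 and 85.3 in DAT libraries. It rose in CX3 (log2 0.38 ± 0.0516 (SE), adjusted p = 8.23e-05) and was not called in DAT (log2 -0.10, adjusted p = 0.126). Gabra5, an extrasynaptic subunit known from hippocampus, was higher in DAT (log2 0.50, adjusted p = 1.1e-05), and its lower call in CX3 (log2 -0.21, adjusted p = 0.0213) was lost without CTR_A.

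Of the beta subunits, which form the GABA-binding site together with the alpha subunits, Gabrb1 was called lower in CX3 only (log2 -0.26, adjusted p = 0.0186), and that call was lost without CTR_C. Gabrb2 depended on the 2 libraries that stood apart. It had 135, 136 and 145 CPM in control, 121, 165 and 170.3 in CX3 and 189.8, 121 and 185 in DAT libraries. It was called in no comparison (log2 0.26, adjusted p = 0.134 in DAT), and without CX3_A and DAT_B it was called higher in both groups (log2 0.28 in CX3 and 0.42 in DAT). Of the gamma subunits, Gabrg3 rose in DAT (log2 0.58, adjusted p = 0.000137). Gabrg1, a subunit also carried by glia, was called lower in CX3 (log2 -0.17) and higher in DAT (log2 0.17), calls lost in 5 and 4 of the 9 fits without 1 library. Gabrd, the extrasynaptic delta subunit, was called higher in CX3 only (log2 0.20, adjusted p = 0.0394), a call lost without CTR_C. The rho subunit gene Gabrr2 had 2.43, 2.28 and 2.03 CPM in control, 1.92, 2.19 and 1.77 in CX3 and 1.21, 1.46 and 1.67 in DAT libraries. It was the only receptor gene lower in DAT by 1.5-fold or more (log2 -0.67 ± 0.18 (SE), adjusted p = 0.0048). Gabrr1, at 0.361, 0.467 and 0.433 CPM in control and 0.182, 0.289 and 0.208 in CX3 libraries, missed the threshold (log2 -0.90, adjusted p = 0.0515).

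The GABA-B receptor works only as a pair of its subunits, and both genes were higher in DAT. Gabbr1 (chr17:37045966-37075067, plus strand) had 653, 655 and 655 CPM in control, 656, 682 and 687 in CX3 and 968, 866 and 932 in DAT libraries (log2 0.50 ± 0.0427 (SE), adjusted p = 2.08e-07 in DAT). Gabbr2 (chr4:46662305-46991873, minus strand) had 204, 213 and 212 CPM in control, 183, 208 and 222 in CX3 and 386, 285 and 376 in DAT libraries, where DAT_B was again the lowest. Its log2 fold change in DAT was 0.74 ± 0.0943 (SE), adjusted p = 1.09e-05, and 0.86 without DAT_B. In CX3 neither gene was called (log2 0.05 for Gabbr1 and -0.03 for Gabbr2).

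Read side by side, 11 receptor genes (5.61% of all genes) were called lower in CX3 and higher in DAT against the same controls, among them Grin1, Grin3a, Grik4, Grm2, Grm5, Grm7, Grm8, Gabra5, Gabrg1 and Gabrq. Another 6 were higher in both (8.06% of all genes), 2, Gria2 and Grik2, were lower in both (7.05%), and 15 were called higher in DAT but not called in CX3 (18.3%). Of the receptor genes, 0 were called higher in CX3 and lower in DAT (2.06% of all genes). The direct test of CX3 against DAT called all 11 lower in CX3, from log2 -1.89 for Grm2 and -1.45 for Gabrq to -0.34 for Gabrg1. The 4 genes higher in CX3 than in DAT were Gabra4 (log2 0.48, adjusted p = 2.31e-06), Gabrr2 (0.47, lost without DAT_A at 0.34, adjusted p = 0.177), Grin2c (0.16) and Gria2 (0.15). Leaving out CX3_A raised that count to 8, and leaving out CX3_A, DAT_A or DAT_B raised the 3 lower calls of DAT against CTR to 5.

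The subunit make-up of each family can be read without any scaling between libraries, as shares of the family's summed level per kilobase. With 3 libraries against 3, an exact permutation test cannot go below p = 0.10 (two-sided), the value reached whenever the groups do not overlap. The ratio of Gria1 to Gria2 in CPM was 0.699, 0.706 and 0.707 in control, 0.712, 0.72 and 0.738 in CX3 and 1.31, 1.09 and 1.26 in DAT libraries. The 3 groups did not overlap, and DAT_B was closest to the others. The Gria2 share of the AMPA family was 22.4, 21.9 and 22.3% in control, 20.9, 20.7 and 20.4% in CX3 and 15.1, 17.6 and 15.8% in DAT libraries. The Gria3 share was 11.8, 11.9 and 12.1% in CX3 against 9.43, 9.45 and 9.36% in control libraries, which DAT libraries overlapped.

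Among the GluN2 subunits the order of the groups was opposite for Grin2c and Grin2b. Grin2c made up 41.9, 43.4 and 41.9% of the family in control, 50.4, 46.3 and 48.2% in CX3 and 32.6, 35.2 and 31.6% in DAT libraries. Grin2b made up 18.5, 18.7 and 18.7% in control, 14.9, 16.4 and 15.9% in CX3 and 23.9, 23.1 and 24.8% in DAT libraries. Neither subunit's groups overlapped, while the Grin2a shares of all 3 groups did.

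In the kainate family, the Grik2 share was 22.1, 20.99 and 21.6% in control, 15.6, 18.2 and 18.4% in CX3 and 10.9, 10.2 and 11.6% in DAT libraries, and the Grik5 share was above control in both groups, at 55.1, 52.9 and 51.1% in CX3 and 51.7, 56.6 and 49.5% in DAT against 44.4, 45.4 and 44.1% in control libraries. Among the GABA-A alpha subunits, Gabra2 made up 8.56, 8.88 and 9.04% in control, 7.79, 7.51 and 7.27% in CX3 and 12.3, 12.8 and 12.5% in DAT libraries. Gabra4 went the other way, with 11.3, 11.2 and 11.2% in control, 12.96, 12.96 and 13.1% in CX3 and 8.50, 9.64 and 8.63% in DAT libraries.

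**Figure D4:**
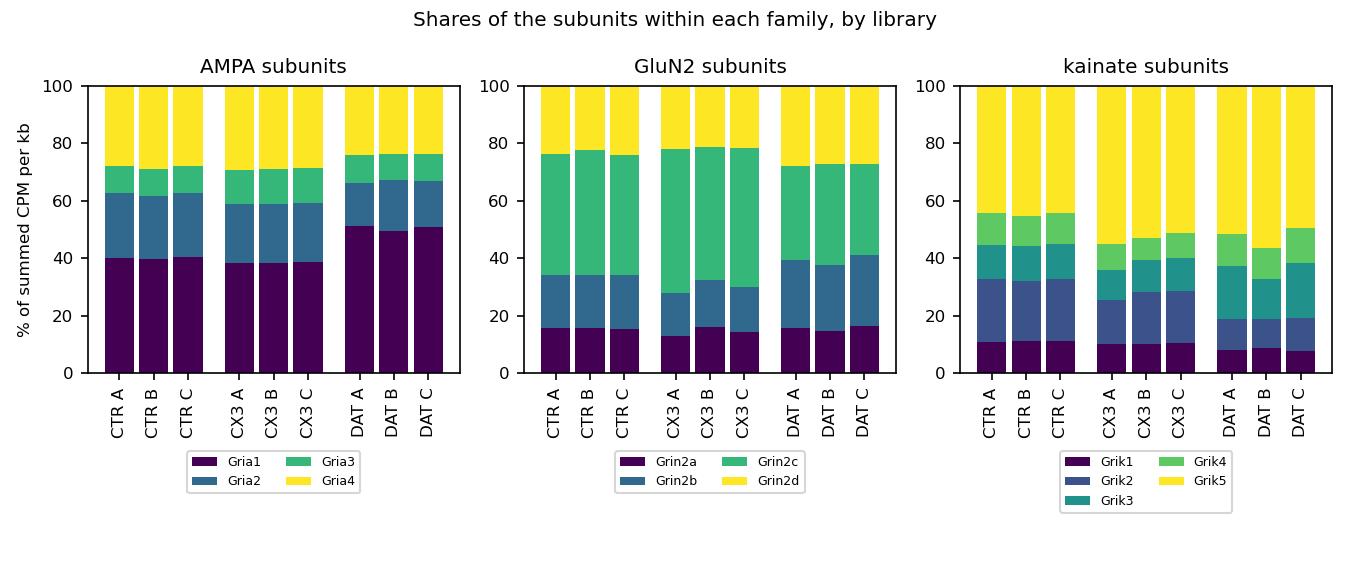
Share of each subunit in its family's summed CPM per kilobase (y axis, 0 to 100%), stacked, with 1 bar per library, for the AMPA, GluN2 and kainate subunits. In DAT libraries Gria1 takes 49.5 to 51.1% of the AMPA level against 39.9 to 40.5% in control libraries, and Grin2c takes its largest GluN2 share in CX3 libraries.

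Genes that neurons express in general were also higher in DAT. Of 10 pan-neuronal markers, 9 were higher in DAT against CTR (median log2 0.46), and their summed level was 4930 to 4960 CPM in control, 5070 to 5200 in CX3 and 7340 to 7370 in DAT libraries. The 47 receptor genes summed to 4172, 4144 and 4238 CPM in control, 4005, 4324 and 4341 in CX3 and 5628, 5080 and 5560 in DAT libraries. As a percentage of the pan-neuronal sum this was 84.5, 83.8 and 85.5% in control, 79.02, 83.7 and 83.5% in CX3 and 76.3, 69.1 and 75.8% in DAT libraries. By these sums, in which abundant genes weigh most, DAT libraries held the least receptor RNA relative to the pan-neuronal genes, and DAT_B the lowest value. The median log2 fold changes in DAT against CTR did not show this, at 0.49 for the tested receptor genes and 0.46 for the pan-neuronal markers. When libraries were scaled to the 10 pan-neuronal genes in place of TMM, an alternative chosen after seeing the data, 13 receptor genes were higher (7.1% of all genes) and 18 lower (70.6% of all genes) in DAT against CTR. The median log2 fold change was then -0.58 over all genes and -0.08 over the 43 receptor genes. By 1.5-fold or more, 4 were higher (2.05% of all genes): Grik3, Grm2, Grm4 and Gabre. Grin1, Grin2b, Grin2d, Grik5, Grid1, Grm8, Gabra2 and Gabrq were among the others still called higher. In the other direction, 7 were lower by 1.5-fold or more: Gria2, Gria4, Grik2, Gabra4, Gabrb1, Gabrr1 and Gabrr2. The share of all genes lower by that much was not computed.

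The families differed on this scale. NMDA genes summed to 6.84, 6.70 and 6.91% of the pan-neuronal level in control, 6.11, 6.61 and 6.53% in CX3 and 8.40, 7.005 and 8.08% in DAT libraries, highest in DAT. AMPA genes summed to 15.5, 15.4 and 15.8% in control, 13.8, 14.4 and 14.5% in CX3 and 10.96, 10.3 and 11.03% in DAT libraries, lowest in DAT. GABA-A alpha subunits summed to 13.7, 13.8 and 14.03% in DAT against 17.7, 17.3 and 17.6% in control libraries, and GABA-B genes overlapped in all 3 groups.

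Markers of neurons from particular regions also differed between the groups. Dopaminergic markers summed to 882 to 890 CPM in control, 1080 to 1100 in CX3 and 705 to 718 in DAT libraries. Slc6a3, the dopamine transporter, had the same order (128, 133 and 129 CPM in control, 193, 195 and 198 in CX3 and 93.3, 88.3 and 91.6 in DAT libraries). Its locus carries the Cre of the DAT mice, and the part of that insertion in its DAT level was not tested. Of the 10 dopaminergic markers, 7 were higher and 0 lower in CX3, whereas in DAT 3 were higher and 4 lower (median log2 -0.15). Most of the lower DAT sum came from Aldh1a1, an aldehyde dehydrogenase (444, 441 and 438 CPM in control and 309, 323 and 318 in DAT libraries). Forebrain excitatory markers summed to 326 to 334 CPM in control, 400 to 431 in CX3 and 531 to 646 in DAT libraries, and 8 of 8 tested were higher in DAT. Of the cerebellar granule markers, 7 of 10 were higher and 1 lower in DAT, and 4 were higher and 4 lower in CX3. Thalamic and pretectal markers were higher in DAT for 4 of 7 genes and lower for 0, and in CX3 for 3 and 3. Of the non-neuronal lists, 8 of 8 microglial and 8 of 8 T cell markers were lower in DAT, against 7 and 4 of 8 in CX3. Of 8 oligodendrocyte and precursor markers, 4 were higher and 3 lower in DAT and 2 higher and 3 lower in CX3, and of 7 endothelial and pericyte markers 4 were higher and 2 lower in DAT and 5 higher and 0 lower in CX3. The part of differences in the dissected tissue in the receptor results was not tested.

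**Figure D5:**
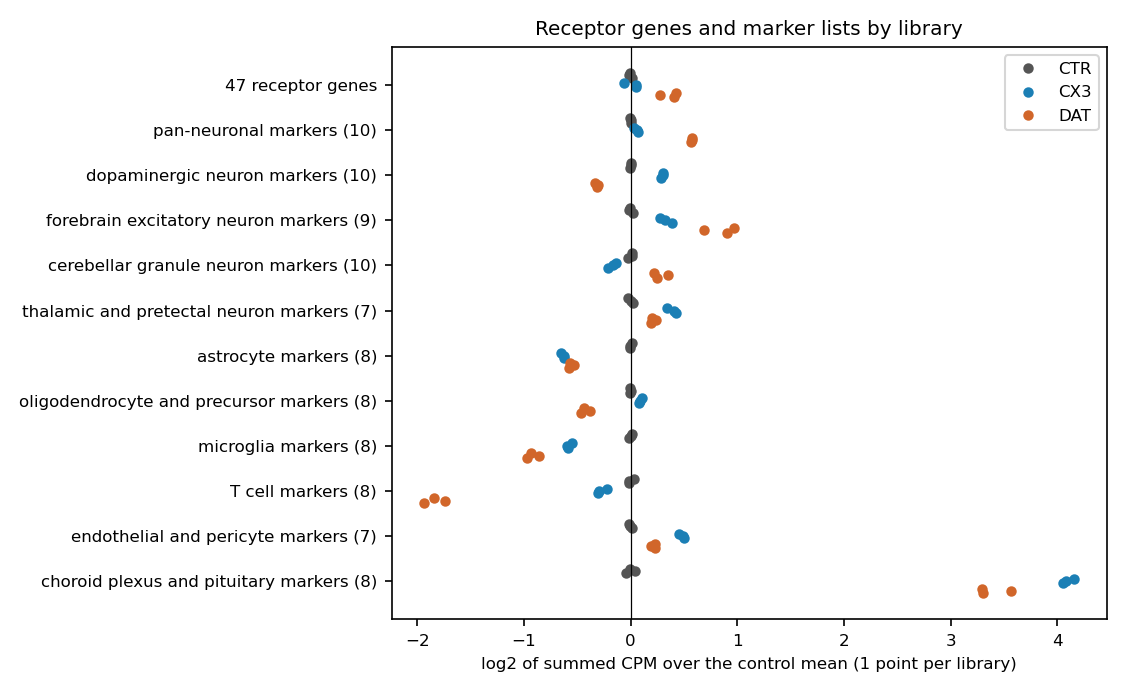
Log2 of the summed CPM of the 47 receptor genes and of 11 marker lists (number of genes in parentheses) over the control mean, with 1 point per library. The receptor genes and the pan-neuronal markers lie right of 0 in DAT libraries, the dopaminergic markers right in CX3 and left in DAT, and the summed choroid plexus and pituitary markers, a sum carried by choroid plexus genes, far right in both.

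Genes that work with the receptors followed in part. Of 14 auxiliary subunits of AMPA and kainate receptors, 13 were higher in DAT (median log2 0.62) and 6 higher and 2 lower in CX3. Among them Gsg1l (log2 1.15 in DAT), Cacng2, the TARP that carries AMPA receptors to the synapse (0.95), and Cacng8 (0.88) rose most in DAT, and Cnih3 most in CX3 (0.61). Of 13 postsynaptic scaffolds, 9 were higher in DAT and 5 in CX3, and 0 lower in either. Shank3, a backbone of the excitatory synapse, was higher in CX3 (log2 0.96, adjusted p = 3.72e-07) and in DAT (0.77), and Dlg4, which encodes PSD-95, had 0.22 and 0.82. Of 9 GABA receptor partners, 5 were higher and 1 lower in DAT and 2 higher and 3 lower in CX3. Nlgn2, the adhesion protein of inhibitory synapses (log2 1.25), and Lhfpl4, which links it to GABA-A receptors (1.04), led in DAT, and Clptm1, which retains unassembled GABA-A subunits, was higher in DAT (0.51) and lower in CX3 (-0.33). Kctd8, an auxiliary subunit of GABA-B receptors, was lower in CX3 (log2 -0.44, adjusted p = 0.000932).

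On the transmitter side, 6 of 7 genes of synthesis and vesicular loading were higher in DAT and 2 in CX3, where 3 were lower. Slc17a7, the vesicular glutamate transporter of cortical and cerebellar inputs, had 37.3, 38.4 and 35.4 CPM in control, 71.3, 67.9 and 71.5 in CX3 and 171, 147 and 163 in DAT libraries (log2 0.92 and 2.12, adjusted p = 3.3e-12). The GABA genes Slc32a1, the vesicular GABA transporter (log2 1.29), and Gad1, a GABA-synthesizing enzyme (1.02), rose in DAT and fell in CX3 (-0.23 and -0.23). Of 8 genes of uptake and breakdown, 7 were lower in CX3 and 5 higher in DAT. The glial glutamate transporter Slc1a3 fell in CX3 (log2 -0.63, adjusted p = 1.18e-07), while the neuronal transporter Slc1a6 fell in CX3 (-0.45) and rose in DAT (0.70). These lists were chosen with earlier results of these data known.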

How the data were processed

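Substantia nigra RNA (1 µg per library) was made into stranded mRNA libraries and sequenced as reads of 76 bases, 3 libraries per group. The submitters' processing notes name Trimmomatic, STAR, featureCounts and DESeq2 and the build mm10; versions are not given in the sources used here. The files deposited by the authors hold raw counts per gene in the layout of STAR, in 3 columns: unstranded, forward and reverse. Rows that name no gene (30.5 to 35.9% of reads) were left out. The unstranded column was used, since 49.8 to 49.9% of stranded counts were reverse, so overlapping genes on opposite strands cannot be told apart. Members were matched to GENCODE M21.

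From the deposited counts, genes passing filterByExpr were TMM-scaled and fitted over all 9 libraries with edgeR 4.0.16 (quasi-likelihood, R 4.3.3) without covariates, and p-values were adjusted by Benjamini-Hochberg over 20892 genes. SE is the absolute log2 fold change divided by the root of F. The fit was tested on simulated data. The study's methods name DESeq2, which is given as an alternative. Alternatives changed the scaling, filter, strand, tool, libraries and block.

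Members and lists were chosen with earlier results of these data known. Values per library are given for called members with a 1.5-fold change (up to 15 per comparison by size, mean of at least 0.5 CPM), for the highest gene per kilobase of a family, and of other lists for up to 4 genes with the largest called change; Th, Slc6a3 and Cx3cr1 were added to check the tissue. The values per library of Gh, Prl, Aldh1a1, Gria2, Grin2c, Gabra4, Gabrb2, Gabrr1 and Gabrr2, and the scaling to pan-neuronal genes, were chosen after values were seen. Promoter sequences are from RefSeq. The gene that the transgene vector carries and 5 receptor genes are not reported here; the receptor genes stay in the fits, counts and sums.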

Additional observations from a re-analysis of the deposited data

Results flagged for a closer look

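The 10 receptor genes listed here were picked as called in all 3 comparisons, with opposite signs in CX3 and DAT against the common controls. Calls are from edgeR's quasi-likelihood test with Benjamini-Hochberg adjustment. They are among the 11 receptor genes called lower in CX3 and higher in DAT above (5.61% of all genes). The log2 difference of CX3 minus DAT was -1.89 for Grm2, -1.45 for Gabrq, -1.37 for Grm8, -1.22 for Grin1, -0.98 for Grik4, -0.74 for Grin3a, -0.71 for Gabra5, -0.585 for Grm5, -0.47 for Grm7 and -0.34 for Gabrg1. Every CX3 library was below every control library, and every DAT library above, in all 10 genes. This separation follows largely from the way the genes were picked and adds no support. The groups also differ in Cre line and tamoxifen, which cannot be told apart from the vector's target cell. Of the 10, the lower CX3 call of Gabra5, Gabrg1, Grik4 and Grm7 was lost in at least 1 fit without a library. Scaled to the 10 pan-neuronal genes, Grm2, Gabrq, Grm8 and Grin1 were still called higher in DAT against CTR, while the DAT value turned negative for Grin3a, Gabrg1, Grm7, Gabra5 and Grm5. Pan-neuronal markers were also higher in DAT, 9 of 10, but not lower as a sum in CX3, where 5 of 10 were higher and 2 lower. Their part in the result was not tested.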

How the results depend on the processing

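Leaving out 1 library at a time gave 7 to 12 receptor genes higher and 10 to 18 lower in CX3 against CTR, 30 to 33 higher and 3 to 5 lower in DAT against CTR, and 4 to 8 higher and 28 to 32 lower in CX3 against DAT. At 1.5-fold these were 0 higher and 1 to 2 lower, 15 to 18 higher and 1 to 2 lower, and 0 to 1 higher and 17 to 21 lower. Over all genes, 4638 to 8588, 11259 to 13389 and 11265 to 13254 were called. The replicate letters showed no pairing of the libraries: deviations from the group mean correlated from -0.16 to 0.04 between libraries with the same letter. Libraries did not all correlate best with their own letter. Since each group has 3 libraries, and CX3_A and DAT_B stood apart in theirs, this cannot exclude a pairing. With the replicate block, 8 receptor genes were higher and 14 lower in CX3 against CTR, 32 and 3 in DAT against CTR, and 3 and 30 in CX3 against DAT. In CX3 against CTR, lower calls of 1.5-fold numbered 2 with genes of at least 1 count, with at least 10 counts per library of a group, with forward-strand counts and without CX3_A and DAT_B, and 0 when tested against 1.5-fold (glmTreat), and higher calls numbered 15 without those libraries. In DAT against CTR, lower calls numbered 7 with library size only, 5 with genes of at least 1 count or reverse-strand counts, and 6 without CX3_A and DAT_B. Those of 1.5-fold numbered 2 with DESeq2 or without these libraries, 3 with genes of at least 1 count, and 0 with forward-strand counts or glmTreat. In CX3 against DAT, higher calls numbered 10 with library size only or without CX3_A and DAT_B, 7 with forward-strand and 9 with reverse-strand counts, and those of 1.5-fold 2 with library size only or reverse-strand counts and 1 with genes of at least 1 count. With library size only, Gabra3 turned to 0.0656 in CX3 against DAT. The cause of these changes was not tested.

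The alternatives of leaving out CX3_A with DAT_B and of scaling to the 10 pan-neuronal genes were chosen after seeing the data. The pan-neuronal scaling uses the summed counts of those genes, in which abundant markers weigh most, and removes by construction what receptor genes share with them. It gave 13 higher (4 of 1.5-fold) and 18 lower (7 of 1.5-fold) in DAT against CTR, 16 higher (9) and 17 lower (7) in CX3 against DAT, and 3 lower of 1.5-fold in CX3 against CTR. Among the values that changed sign, in DAT against CTR the log2 fold change became -0.15 for Grin3a, -0.40 for Gabrg1, -0.30 for Grm7, -0.07615 for Gabra5, -0.25 for Grm5, -0.10 for Gria1, -0.29 for Grin2c, -0.34 for Grik1, -0.0764 for Gabbr1, -0.41 for Gria3 and -0.28 for Gabra3. In CX3 against DAT it became 0.24 for Grm3, 0.18 for Gabrg1, 0.31 for Gabrb1, 0.04135 for Grm7, 0.17 for Gabrg3, 0.0155 for Grin2a, 0.26 for Grik1, 0.0652 for Gabbr1 and 0.39 for Gabra3. Low counts limited Grin3b, Gabrr1, Gabrr2 and the 4 untested genes.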
